A study of Drosophila melanogaster with 9 samples.

Results

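Whole Drosophila embryos in which neural stem cell transcription factors were misexpressed were compared with control embryos, taking both misexpression genotypes together. All 9 libraries of the series entered the comparison, 6 from misexpression embryos and 3 from controls. Quad embryos carried the Insc-Gal4 driver and UAS transgenes for ase, Kr, wor and SoxN (3 libraries). Hexa embryos carried the same driver and UAS transgenes for hb, ase, Kr, wor, nub and SoxN (3 libraries). Control embryos carried Insc-Gal4 over an OregonR chromosome, so the driver was present in every library (3 libraries). The series has no embryos with the UAS transgenes alone, so an effect of misexpression cannot be told apart from a difference between the transgene stocks and OregonR. Each library was made from total RNA of more than 200 embryos from stage 16 on, described as a biological replicate. The labels give each genotype its own experiment number, while the design text speaks of 2 experiments that each had a control, so genotype and experiment cannot be told apart.

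Neuroblasts are the stem cells of the fly nervous system: they divide asymmetrically, renew themselves and give rise to neurons and glia. They express asense (ase) and worniu (wor), which are bHLH and Snail-family factors, and SoxB proteins such as SoxNeuro (SoxN). Hunchback (hb), Krüppel (Kr) and the POU protein Nubbin (nub) are temporal factors, expressed in turn as a neuroblast ages. Insc-Gal4 places Gal4 under control of inscuteable, a gene of dividing neuroblasts. In the late embryo most neuroblasts have stopped dividing, while cuticle, gut and other larval tissues complete their differentiation. RNA of a whole embryo does not show which cells a transcript came from, and more cells of a type cannot be told apart from more RNA per cell.

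Levels are given as RPKM (read number corrected for gene length and sequencing depth), in the order of replicates 1, 2 and 3. Differences are log2 fold changes on log2(RPKM + 0.1), a scale that understates the change of low genes, with the standard error (SE) of a limma fit to all 9 libraries. The pooled difference is the mean of the Quad and Hexa means minus the control mean. Of 10221 genes in the deposited table, 6190 reached 0.5 RPKM in at least 3 libraries and were tested. A gene was called at a Benjamini-Hochberg adjusted p under 0.05. It was counted as shared when it was called and all 6 misexpression libraries lay on 1 side of all 3 controls. A call in each genotype alone was not required.

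The table holds no gene whose pooled difference is near 0. The smallest absolute difference between the mean log2 RPKM of the 6 misexpression and the 3 control libraries was 0.1376, just beyond a 1.1-fold change (0.1375 on the log2 scale). By contrast, 2610 rows lay within that limit for Quad against control, 1244 for Hexa against control and 1736 for Hexa against Quad. The rows therefore form a selected family for the pooled comparison, and percentages of called genes are percentages of that family. Adjustment over 13841 genes was used beside the main adjustment. It adds to the tested genes 7651 more, the excess of the 17872 annotated genes over the rows of the table, without matching gene by gene. Genes such as elav and pros have no row, and nothing can be said of their levels.

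**Figure D1:**
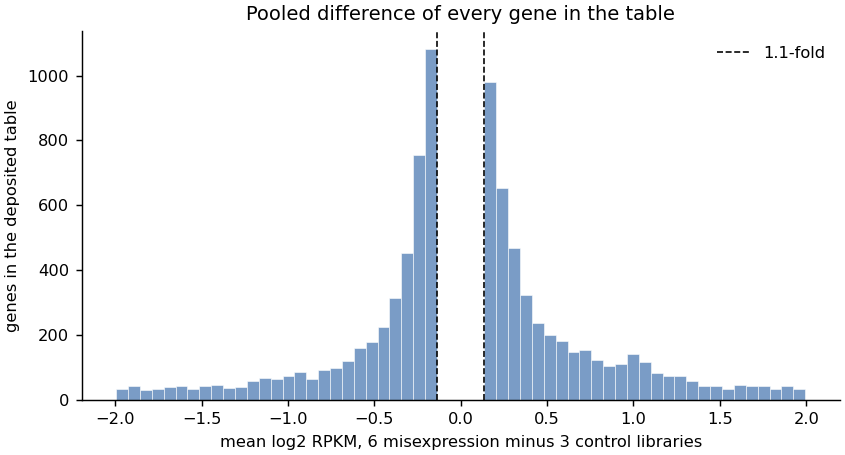
Number of genes in the deposited table by the difference in mean log2 RPKM between the 6 misexpression and 3 control libraries; bin edges fall on the 1.1-fold limit. Dashed lines mark 1.1-fold, and no gene lies between them; 1341 genes beyond the plotted range are not drawn.

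The heat shock genes differed among libraries within a genotype. The mean log2 level of 17 heat shock genes, relative to the control mean, ranged from -0.61 to 0.38 in controls and from -0.80 to 0.68 in Quad. It was 0.74 in Hexa 1, 2.09 in Hexa 2 and 2.44 in Hexa 3. With this level as a covariate the fit gave 158 pooled falls in place of 284, and 588 calls for Hexa against control in place of 1997. List counts without Hexa 2 and 3 are given beside the gene groups.

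Pooled misexpression changed 799 of the 6190 tested genes (12.9%), with 515 higher (8.32%) and 284 lower (4.59%). Of these, 534 were shared (8.63%): 305 were shared rises (4.93% of tested genes) and 229 were shared falls (3.7%). Without regard to the test, the 6 misexpression libraries lay above all controls for 485 genes (7.84%) and below them for 413 (6.67%). Over the wider family of 13841 genes, 444 were called, among them 208 of the shared rises and 138 of the shared falls. The counts rested on all libraries, and 799 became 360 without control 1, 402 without control 3, 477 without Quad 1, 489 without Quad 2 and 516 without Hexa 1. The shared rises numbered 182 without control 1 and 474 without control 2. The shared falls numbered 125 without control 1, 114 without control 3, 143 without Quad 1 and 151 without Quad 2. Centring each library on its median gene shifted the median difference by -0.076 and turned the split of calls into 389 higher and 460 lower.

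Each genotype on its own gave 290 calls for Quad (4.68%; 134 higher, 2.16%, and 156 lower, 2.52%) and 1997 for Hexa (32.3%; 1184 higher, 19.1%, and 813 lower, 13.1%), against the same 3 controls. The Hexa count was 962 without control 1, 1002 without Hexa 1 and 1250 without Hexa 2. The Quad count was 182 without control 1, 143 without control 3, 132 without Quad 1, 162 without Quad 2 and 167 without Quad 3. Among pooled calls, 24 had genotype means on opposite sides of the control mean. A difference between Hexa and Quad was called for 1431 tested genes (23.1%; 835 higher in Hexa, 13.5%, and 596 lower, 9.63%), and this contrast does not enter the pooled one.

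The genes misexpressed from transgenes were uneven in level. RPKM are given per gene, so RNA from a transgene cannot be told apart from RNA of the gene's own locus. worniu and asense rose in every misexpression library, SoxN rose mainly in Quad, hb mainly in Hexa, and neither Kr nor nub passed the pooled test. wor stood at 2.98, 2.56 and 3.11 RPKM in controls, 18.0, 10.9 and 16.4 in the Quad libraries, and 23.6, 12.9 and 18.2 in those of Hexa. Its pooled log2 fold change was 2.45 (SE 0.21, limma adjusted p = 1.24e-04), and the Hexa minus Quad difference of 0.26 had a 95% interval from -0.28 to 0.80. ase was at 2.45, 2.40 and 2.35 RPKM in controls, 5.35, 5.02 and 4.48 in the Quad libraries, and 6.75, 5.01 and 6.15 in those of Hexa. It rose by 1.14 (SE 0.12, limma adjusted p = 4.87e-04), again with an interval of the genotype difference within 1 log2 unit of 0 (-0.06 to 0.58). For both genes the misexpression libraries lay clear of the controls.

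SoxN was at 20.3, 24.8 and 20.4 RPKM in controls, 38.1, 38.6 and 37.6 in the Quad libraries, and 28.4, 20.3 and 29.7 in those of Hexa. All Quad libraries were above the controls, while Hexa 2 was not. The pooled log2 difference of 0.53 (SE 0.13) passed with a limma adjusted p of 0.0335, but not over the wider family (0.0748), and not without control 1, control 3, any Quad library or Hexa 1. Its count column is 0 in every library and cannot bear on it. hb was at 1.72, 1.55 and 1.40 RPKM in controls, 6.99, 2.83 and 1.81 in the Quad libraries, and 18.1, 8.87 and 14.7 in those of Hexa. Quad embryos carry no hb transgene by their label, and Quad 3 was close to the controls. Its pooled difference of 2.03 (SE 0.38, limma adjusted p = 0.0112) came with a Hexa minus Quad difference of 1.98 (limma adjusted p = 0.0186), and the call was lost without control 3 (adjusted p = 0.0524). On the deposited counts of hb, which do not follow its RPKM, the pooled difference was -0.0108 (edgeR adjusted p = 0.976).

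Kr stood at 6.61, 8.20 and 6.91 RPKM in controls, 6.11, 6.71 and 5.40 in the Quad libraries, and 4.59, 4.46 and 5.57 in those of Hexa. Although both genotypes are labelled as carrying a Kr transgene, no library was above the highest control, and the pooled log2 difference was -0.41 (SE 0.13, limma adjusted p = 0.0648). nub was at 18.4, 17.9 and 18.8 RPKM in controls, 20.9, 19.6 and 21.3 in the Quad libraries, and 31.6, 22.3 and 28.5 in those of Hexa, with a pooled difference of 0.37 (SE 0.12, limma adjusted p = 0.0693). In Hexa alone, against control, nub was higher by 0.56 (limma adjusted p = 0.0154) and Kr differed by -0.56 (limma adjusted p = 0.0213). The pooled difference of Kr passed under median centring (adjusted p = 0.0254) and without Hexa 3 (0.0434), and that of nub without Hexa 2 (0.0121) and without both Hexa 2 and 3 (0.0202).

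Of 30 listed neuroblast factors 20 had a row and 18 were tested. Of the 18, 8 rose (44.4%, against 8.32% of all tested genes) and 1 fell. Their median log2 difference was 0.34 against 0.14 over all tested genes. The value of 0.14 lies at the edge of the gap in the table and does not measure a typical shift. Over the 3702 tested genes with a mean control level of at least 5 RPKM the median was -0.15. Over the wider family the counts were 2 and 0, without Hexa 2 and 3 they were 2 and 0, and they ran from 1 to 8 rises when single libraries were left out (1 without control 3), with 1 rise under the heat shock covariate. Of the 8 rises 5 were shared. Against control alone, 3 members were called higher in Quad, and 6 higher and 3 lower in Hexa. For all tested genes the shares were 2.16% higher in Quad, and 19.1% higher and 13.1% lower in Hexa. Hexa minus Quad was called higher for 1 member and lower for 5. insb, which encodes a nuclear inhibitor of Notch signalling, was at 3.91, 2.28 and 3.60 RPKM in controls, 5.69, 3.82 and 4.99 in the Quad libraries, and 7.54, 7.67 and 8.33 in those of Hexa. It rose by 0.92 (SE 0.19, limma adjusted p = 0.0129, and 0.0288 over the wider family), with 1 Quad library inside the control range and Hexa above Quad by 0.71. It was not called without Hexa 2 and 3 (limma adjusted p = 0.0606). mira, which encodes the adaptor Miranda that carries fate determinants into the daughter cell, was at 14.2, 10.2 and 12.4 RPKM in controls, 16.8, 14.5 and 16.7 in the Quad libraries, and 19.2, 17.7 and 21.0 in those of Hexa. All 6 misexpression values exceeded the controls, and the rise of 0.52 (SE 0.12, limma adjusted p = 0.0235) had an adjusted p of 0.0526 over the wider family and was also lost without control 3, Quad 1, Quad 3 or Hexa 1 (0.0503 to 0.0713). The bHLH repressor gene dpn was at 4.41, 4.08 and 4.94 RPKM in controls, 5.67, 5.48 and 5.36 in the Quad libraries, and 6.38, 5.82 and 7.36 in those of Hexa. It rose by 0.41 (SE 0.11, limma adjusted p = 0.0423), a call that was lost over the wider family (0.0945) and on leaving out any single library other than Hexa 2. nerfin-1, a zinc-finger gene of newborn neurons, rose by 0.57 (SE 0.12, limma adjusted p = 0.0164, and 0.063 without control 3) and kept its call over the wider family (0.0366). The RNA-binding protein gene Syp fell by 0.46 (SE 0.12, limma adjusted p = 0.0358).

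Of 48 listed genes of G2 phase and mitosis, 40 were tested, and all 40 had a positive pooled difference (50.9% of all tested genes did). Of the 40, 13 rose (32.5%, against 8.32% of all tested genes) and none fell. Their median log2 difference was 0.50, with 0.37 in Quad and 0.65 in Hexa. Against control alone, 1 member was called higher in Quad and 23 in Hexa, and none was called lower in either. The shares of all tested genes called higher were 2.16% in Quad and 19.1% in Hexa. The count of rises was 7 over the wider family, 13 without Hexa 2 and 3, and 6 with the heat shock level as a covariate. Leaving out single libraries gave 6 without control 3, 7 without control 1 or Quad 2, 8 without Quad 1, Quad 3 or Hexa 1, and 19 without Hexa 2. The other 8 listed genes have no row and are not part of these counts.

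Cytokinesis genes were among them. aurB, the Aurora B kinase of the chromosomal passenger complex, was at 2.48, 1.89 and 2.52 RPKM in controls, 3.09, 3.62 and 4.21 in the Quad libraries, and 5.36, 7.45 and 5.34 in those of Hexa. It rose by 1.00 (SE 0.17, limma adjusted p = 0.00526), and Hexa exceeded Quad by 0.71 (limma adjusted p = 0.0302). pav, a kinesin of the central spindle, was at 1.59, 1.42 and 1.31 RPKM in controls, 2.54, 2.37 and 2.64 in the Quad libraries, and 3.16, 2.34 and 3.35 in those of Hexa. Its rise of 0.87 (SE 0.15, limma adjusted p = 0.00589) had a genotype difference between -0.18 and 0.59. Its partner tum, a RacGAP, rose by 0.75 (SE 0.14, limma adjusted p = 0.00948), and Incenp by 0.71 (SE 0.14, limma adjusted p = 0.0117). polo, a mitotic kinase, went from 3.57, 2.57 and 3.10 RPKM in controls to 4.04, 4.29 and 4.52 in Quad and 5.58, 5.15 and 9.31 in Hexa, with Hexa 3 highest. The other shared rises of the list were the spindle kinesins Klp61F, Klp67A and ncd, the condensin subunits barr and Cap-D2, and scra, the anillin of the contractile ring.

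S phase genes with a row did not move as a group, and of 42 listed only 22 had a row. Of 22 tested G1/S and replication genes, 1 rose (Mcm3, a helicase subunit, 0.45) and 1 fell (RnrL, a ribonucleotide reductase subunit, -0.52), and neither was called over the wider family by limma (adjusted p = 0.102 and 0.0894) or on leaving out any control or Quad library. The cyclin gene CycE had a pooled difference of 0.20 (SE 0.16, limma adjusted p = 0.325), and stg, the Cdc25 phosphatase that starts mitosis, one of 0.23 (SE 0.11, limma adjusted p = 0.176).

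**Figure D2:**
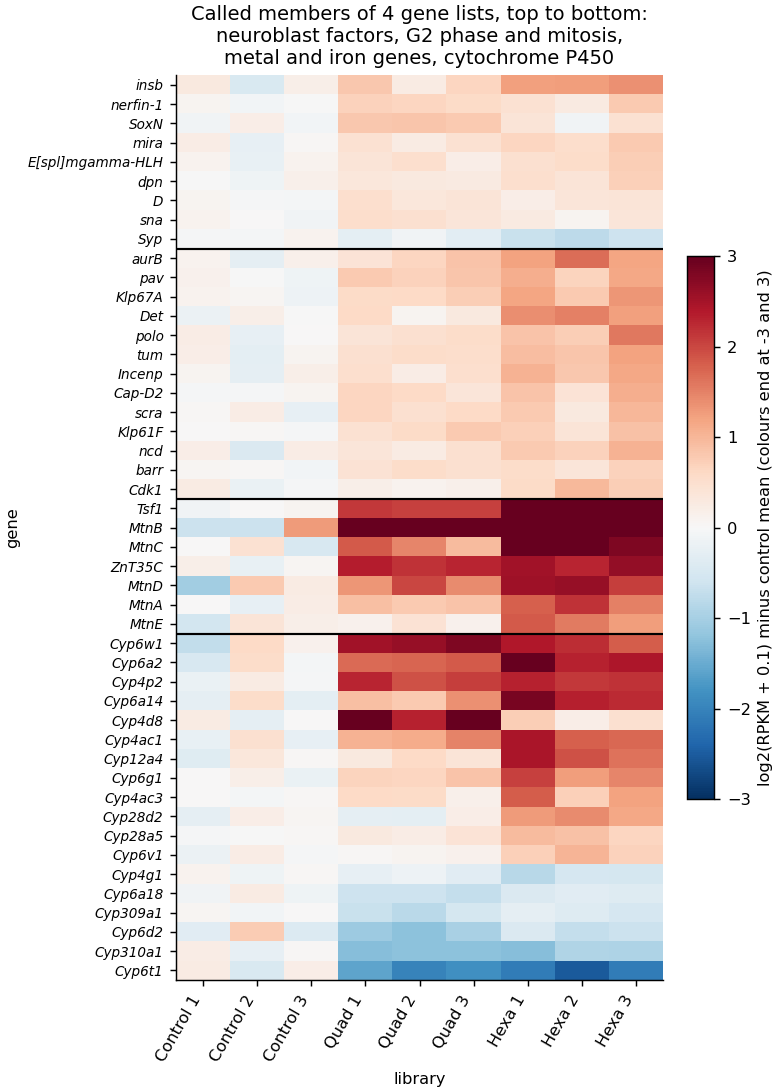
Heat map of log2(RPKM + 0.1) minus the control mean in each of the 9 libraries (columns) for the called members of 4 gene lists (rows, separated by black lines). Red is above and blue below the control mean. Most of the 13 G2 and mitosis genes are pale red in Quad and darker in Hexa, while ZnT35C and Cyp4p2 have like colours in both genotypes.

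The largest shared rises included immune, metal and detoxification genes. PGRP-SB2, a small peptidoglycan recognition protein, was at 0.0947, 0.111 and 0.0330 RPKM in controls, 21.4, 10.05 and 8.41 in the Quad libraries, and 96.3, 77.4 and 52.1 in those of Hexa. Near absent in controls, it rose by 7.41 (SE 0.31, limma adjusted p = 1.42e-06), and Hexa exceeded Quad by 2.57. Drsl6, a drosomycin-like peptide gene, was at 0.0561, 0.0555 and 0.116 RPKM in controls, 31.4, 37.9 and 59.6 in the Quad libraries, and 17.5, 21.3 and 10.1 in those of Hexa. It rose by 7.20 (SE 0.27, limma adjusted p = 4.27e-07), and here Quad was the higher genotype by 1.41 log2 units (Hexa minus Quad -1.41). lcs was at 0.847, 3.48 and 2.12 RPKM in controls, 39.6, 45.9 and 26.7 in the Quad libraries, and 412, 403 and 267 in those of Hexa, a rise of 5.86 (SE 0.39, limma adjusted p = 5.10e-05).

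Among 19 antimicrobial peptide genes 4 rose (21.1%) and 1 fell, also over the wider family, 14 had a positive difference and their median was 1.1 (0.45 in Quad, 1.65 in Hexa). Of the 4 rises 1 was shared. In Quad alone 1 member was called higher and 2 lower (2.16% and 2.52% of all tested genes). Relative to the control mean, their mean log2 level ran from -0.79 to 0.71 in controls, -0.42 to 0.93 in Quad and 1.41 to 1.87 in Hexa. The Quad and control libraries thus overlapped. Among 16 recognition and signalling genes 3 rose (2 over the wider family) and none fell, 10 had a positive difference and the median was 0.21. Without Hexa 2 and 3 the counts were 3 and 2, and 2 and 0. Without control 1 or control 3 the peptide genes gave 2 rises and without control 2 they gave 6, while the recognition genes gave 1 rise without control 3. Drsl2, another drosomycin-like gene, went the other way from Drsl6. It stood at 2.02, 1.16 and 1.88 RPKM in controls, 0.127, 0.0712 and 0 in the Quad libraries, and 0.408, 1.04 and 0.339 in those of Hexa, and fell by 2.47 (SE 0.39, limma adjusted p = 0.00419). AttA and AttB, which encode near-identical attacins whose reads may be split between them, were called higher but overlapped the controls in Quad.

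Of 13 tested metal and iron genes 7 rose (53.8%) and none fell, 9 had a positive difference, and the median was 0.89 (0.23 in Quad, 1.55 in Hexa). Against control alone, 4 were called higher in Quad, and 8 higher and 2 lower in Hexa. Among all tested genes 2.16% were called higher in Quad, and 19.1% higher and 13.1% lower in Hexa. The pooled count held at 6 over the wider family, 7 without Hexa 2 and 3, and 6 to 7 when single libraries were left out. ZnT35C, a zinc transporter, was at 8.19, 6.14 and 7.51 RPKM in controls, 37.5, 32.9 and 35.5 in the Quad libraries, and 41.7, 35.9 and 45.8 in those of Hexa. Its rise of 2.38 (SE 0.12, limma adjusted p = 3.44e-06) had a Hexa minus Quad interval from -0.10 to 0.53. MtnB, a metallothionein that binds metal ions, was at 0.164, 0.162 and 0.901 RPKM in controls, 7.10, 8.97 and 8.32 in the Quad libraries, and 40.2, 32.9 and 24.1 in those of Hexa, a rise of 5.30 (SE 0.41, limma adjusted p = 1.24e-04). The metallothioneins MtnA, MtnC and MtnD were shared rises too, by 1.34, 2.44 and 2.00. MtnE was called but overlapped the controls in Quad.

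Tsf1, the iron carrier transferrin of the haemolymph, was at 0.147, 0.168 and 0.180 RPKM in controls, 1.05, 0.988 and 0.996 in the Quad libraries, and 144, 97.0 and 83.4 in those of Hexa. Quad was above controls by 2.07 and Hexa by 8.64, so the pooled value of 5.35 (SE 0.17, limma adjusted p = 1.97e-07) describes neither genotype well. Its count columns hold 3 reads in all and cannot bear on it.

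Detoxification genes moved in both directions. Of 26 glutathione S-transferases 7 rose (26.9%, against 8.32% of all tested genes) and none fell. All 7 are in the GstD cluster of similar genes, where reads may be split. The count was 4 over the wider family, 5 without Hexa 2 and 3, and 3 without control 1 or control 3. Without control 2 there were 9 higher and 1 lower. GstD7 was at 3.10, 4.79 and 6.24 RPKM in controls, 219, 263 and 355 in the Quad libraries, and 28.8, 49.2 and 27.0 in those of Hexa. The rise of 4.37 (SE 0.27, limma adjusted p = 1.57e-05) was larger in Quad (Hexa minus Quad -3.02). GstD1 was larger in Hexa, at 122, 152 and 144 RPKM in controls, 213, 234 and 224 in the Quad libraries, and 582, 592 and 465 in those of Hexa (Hexa minus Quad 1.28, limma adjusted p = 7.67e-04). GstD5 rose by 2.62, but with an adjusted p of 0.0509 over the wider family and of 0.0677 and 0.0868 without control 1 and control 3, and a control spread from 0.711 to 7.28 RPKM.

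Of 49 cytochrome P450 genes, 12 rose (24.5%) and 6 fell (12.2%), and over the wider family 9 rose and 3 fell. Without Hexa 2 and 3 there were 13 and 4, without control 2 there were 18 rises, and without control 1 there were 2 falls. Cyp4p2 was at 4.27, 5.87 and 4.83 RPKM in controls, 24.3, 18.9 and 21.2 in the Quad libraries, and 24.8, 21.8 and 22.7 in those of Hexa. Its rise of 2.14 (SE 0.13, limma adjusted p = 8.51e-06) had a Hexa minus Quad interval from -0.21 to 0.44. Cyp6a2 and Cyp6w1 rose by 2.17 and 2.40 from controls of at most 1.05 RPKM. Cyp6t1 fell by 2.03 (SE 0.24, limma adjusted p = 7.33e-04), from 2.15, 1.27 and 2.09 RPKM in controls to values between 0.229 and 0.532 in the 6 misexpression libraries, and Cyp310a1 fell by 1.14 (limma adjusted p = 0.00184).

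**Figure D3:**
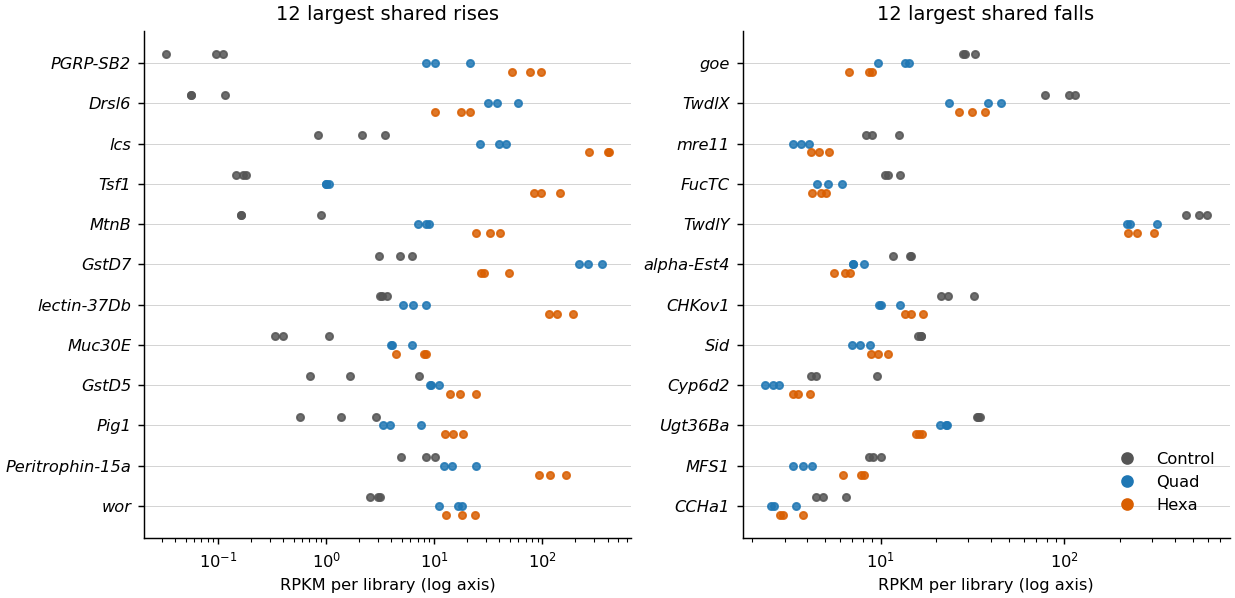
RPKM of each library on a log axis for the 12 largest shared rises (left) and falls (right) among genes with a name and at least 5 RPKM in the higher group; grey points are controls, blue Quad and orange Hexa. Every blue and orange point lies beyond the grey points of its gene, and Tsf1, lectin-37Db, lcs and GstD7 show wide gaps between genotypes.

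A further pair of rises was chosen for a Hexa minus Quad interval within 1 log2 unit of 0. phr, the photolyase that repairs ultraviolet damage to DNA, was at 2.30, 2.07 and 2.70 RPKM in controls, 8.13, 5.98 and 7.82 in the Quad libraries, and 8.33, 6.62 and 8.13 in those of Hexa. It rose by 1.63 (SE 0.14, limma adjusted p = 1.51e-04), by 1.59 in Quad and 1.67 in Hexa, with a genotype difference between -0.30 and 0.45. Irk3, an inward rectifier potassium channel, was at 12.2, 12.1 and 11.7 RPKM in controls, 18.3, 17.9 and 17.3 in the Quad libraries, and 21.6, 20.1 and 19.4 in those of Hexa, a rise of 0.66 (SE 0.08, limma adjusted p = 0.00101). It rose by 0.57 in Quad and 0.76 in Hexa, with a genotype difference between -0.03 and 0.40. The limit of 1 log2 unit exceeds its whole rise.

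Shared falls were smaller than shared rises, with a median log2 change of -0.70 against 0.96, and 61 of 229 falls against 147 of 305 rises reached 2-fold. goe, which encodes a neprilysin-like protein, was at 28.9, 32.6 and 28.0 RPKM in controls, 14.2, 9.69 and 13.7 in the Quad libraries, and 8.65, 6.69 and 8.93 in those of Hexa. It fell by 1.57 (SE 0.15, limma adjusted p = 1.97e-04), while its count columns hold 2 reads in all and cannot bear on it. TwdlX, a Tweedle protein of the larval cuticle, was at 114, 78.1 and 105 RPKM in controls, 45.0, 23.4 and 38.4 in the Quad libraries, and 31.5, 36.9 and 26.8 in those of Hexa, a fall of 1.57 (SE 0.21, limma adjusted p = 0.00172). TwdlY, another Tweedle gene, was at 599, 460.3 and 538 RPKM in controls, 319.8, 219 and 227 in the Quad libraries, and 249, 308 and 221 in those of Hexa, and fell by 1.06 (SE 0.16, limma adjusted p = 0.00389). These 3 genes stand next to each other among the tested genes in RefSeq's order (Release 6 plus ISO1 MT).

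The DNA repair nuclease gene mre11 was at 8.34, 12.6 and 8.96 RPKM in controls, 3.69, 4.09 and 3.34 in the Quad libraries, and 5.23, 4.63 and 4.16 in those of Hexa. It fell by 1.22 (SE 0.15, limma adjusted p = 0.00103), with a genotype difference between -0.07 and 0.72. The fucosyltransferase gene FucTC was at 10.9, 12.7 and 10.6 RPKM in controls, 5.17, 4.49 and 6.14 in the Quad libraries, and 4.23, 5.02 and 4.72 in those of Hexa, and fell by 1.19 (SE 0.13, limma adjusted p = 3.91e-04). Sid, a stress-induced DNase gene, fell by 0.90 (SE 0.11), the esterase gene alpha-Est4 by 0.99 (SE 0.12) and CHKov1 by 0.98 (SE 0.16), with limma adjusted p of 7.67e-04, 8.16e-04 and 0.00454. Ugt36Ba, a UDP-glycosyltransferase, was at 33.9, 34.5 and 33.5 RPKM in controls, 22.8, 21.0 and 22.98 in the Quad libraries, and 16.1, 15.5 and 16.7 in those of Hexa. Its fall of 0.84 (SE 0.08, limma adjusted p = 2.02e-04) was larger in Hexa by 0.46 log2 units (Hexa minus Quad -0.46, limma adjusted p = 0.0111). MFS1, a transporter of the major facilitator family, fell by 0.80 and mostly in Quad, at 3.32, 3.77 and 4.24 RPKM against 8.10, 7.84 and 6.22 in Hexa and 8.67, 9.04 and 10.02 in controls. CCHa1, a neuropeptide gene, fell by 0.78 (SE 0.17, limma adjusted p = 0.0184, and 0.0523 without control 3).

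A shared gene can still differ in size between the genotypes, and need not be called in each of them. Quad alone gave 134 called rises and 156 called falls among all tested genes, fewer than the 305 and 229 shared ones. Of the 305 shared rises, 154 had a Hexa minus Quad interval within 1 log2 unit of 0, and 118 (38.7%) had a called difference, 103 of these larger in Hexa and 15 larger in Quad. Of the 229 shared falls, 184 lay within 1 log2 unit and 31 (13.5%) had a called difference, 16 with Hexa lower and 15 with Quad lower. The limit of 1 log2 unit exceeds the size of the median fall, so lying within it does not show that a fall had like size in the genotypes. Of the genes within it, 23 rises and 14 falls, Ugt36Ba among them, also had a called difference. The median shared rise was 0.72 in Quad and 1.22 in Hexa, whereas the median shared fall was -0.67 and -0.70. In all, 56 shared rises and 28 shared falls had neither an interval within the limit nor a called difference. Among shared genes with a name and at least 5 RPKM, zetaTry, a trypsin gene, and Cyp6d2 were called in neither genotype alone. Both lost the pooled call over the wider family (limma adjusted p = 0.105 and 0.108).

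lectin-37Db, a C-type lectin gene, shows how unequal a shared rise could be. It was at 3.11, 3.65 and 3.26 RPKM in controls, 8.30, 6.37 and 5.12 in the Quad libraries, and 193, 136 and 115 in those of Hexa (Hexa minus Quad 4.46, limma adjusted p = 1.16e-05). Peritrophin-15a, a chitin-binding protein of the gut lining, had 4.97, 10.2 and 8.33 RPKM in controls, 14.4, 24.3 and 12.4 in the Quad libraries, and 166, 118 and 92.9 in those of Hexa. In Quad alone its difference of 1.11 was not called (limma adjusted p = 0.112). The mucin-related gene Mur18B and the sorbitol dehydrogenase gene Sodh-2 rose by 1.12 and 0.89, and Hexa exceeded Quad by 1.37 and 1.39. Quad alone differed from control by 0.43 for Mur18B and 0.19 for Sodh-2, and neither was called (limma adjusted p = 0.115 and 0.470). Muc30E, a mucin gene, rose by 3.16 and Pig1 by 2.57 (limma adjusted p = 5.37e-04 and 0.00842). Pig1 was not called in Quad alone (1.73, limma adjusted p = 0.110).

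**Figure D4:**
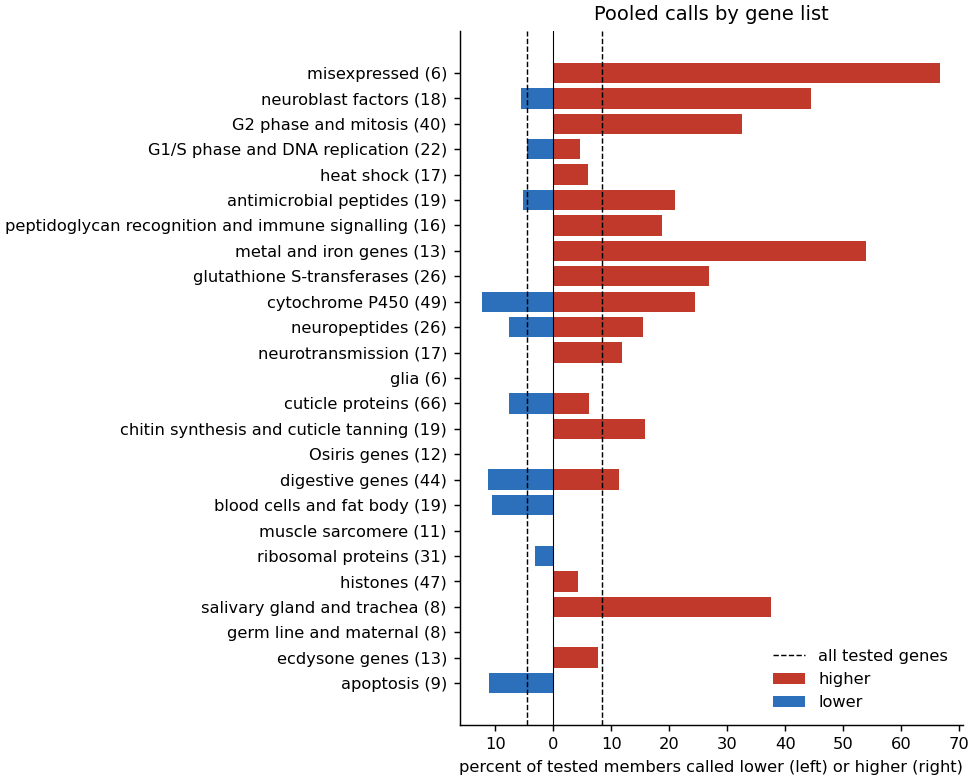
Percent of the tested members of each gene list (number tested in parentheses) called higher (red, right) or lower (blue, left) in the pooled comparison. Dashed lines mark all tested genes, at 8.32% higher and 4.59% lower; the misexpressed genes, metal and iron genes and neuroblast factors reach farthest to the right.

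Lists of differentiated tissues were called at shares on both sides of the background of 8.32% higher and 4.59% lower. Among 66 cuticle protein genes 4 rose (6.06%) and 5 fell (7.58%), and the falls were all shared, among them TwdlX, TwdlY and Lcp1 (-1.30, limma adjusted p = 0.0244), while no rise was. Over the wider family 1 rose and 3 fell, without Hexa 2 and 3 there were 2 and 8, without Hexa 2 alone 11 falls, and without control 1 there were 1 and 2. Of 44 digestive genes 5 rose (11.4%) and 5 fell (11.4%), and of 19 chitin and tanning genes 3 rose (15.8%) and none fell. Only 6 of these 19 had a positive difference, and their median was -0.18 (0.14 in Quad, -0.42 in Hexa). Against control alone, 1 of the 19 was called higher in Quad, and 4 higher and 8 lower in Hexa. The shares of all tested genes were 2.16% higher in Quad, and 19.1% higher and 13.1% lower in Hexa. Without Hexa 2 and 3 the digestive counts were 5 and 4, and 2 chitin and tanning genes rose. Without control 1 the digestive counts were 1 and 2, without control 2 they were 9 and 3, and without control 3 they were 2 and 1, and the chitin and tanning rises fell to 1 on leaving out any library other than Hexa 3. Of 12 Osiris genes of the late epidermis none was called by limma, edgeR or DESeq2 (0 higher and 0 lower at an unadjusted limma p under 0.05). In the chitin and tanning list, y, a pigmentation gene, rose by 0.81 (SE 0.14, limma adjusted p = 0.00766). The new glue genes ng1, ng2 and ng3 of the larval salivary gland rose under each setting tried other than the fit with 2 groups. They stood at no more than 0.679 RPKM in Quad against 1.12 to 8.36 RPKM in Hexa. All 3 passed the filter of 0.5 RPKM in 3 libraries only through Hexa. Their share of the 8 tested salivary gland and tracheal genes (37.5%) therefore does not describe the list. Of the 8, 4 had a positive difference, and the median was -0.01.

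Among 26 neuropeptide genes 4 rose (15.4%) and 2 fell (7.69%), against 8.32% and 4.59% of all tested genes. The counts were 2 and 1 over the wider family, 3 and 2 without Hexa 2 and 3, and 0 and 1 without control 1. The insulin-like peptide genes went in opposite directions, with Ilp7 up by 1.09 (adjusted p = 0.0559 without control 1) and Ilp6 down by 0.50, the latter not called over the wider family (adjusted p = 0.0684). Of 35 listed neurotransmission genes 17 had a row and were tested. Of the 17, 2 rose (11.8%), Trh and Tdc2, which encode enzymes of serotonin and tyramine synthesis. Neither was called over the wider family (limma adjusted p = 0.0747 and 0.109), whereas 6 rose without control 2 and 1 without Hexa 2 and 3. The rise of Trh lay in Hexa (1.12 against control), while Quad differed from control by 0.08 (limma adjusted p = 0.857). Only 6 of 20 listed glial genes had a row. None of the 6 was called by limma, edgeR or DESeq2 (0 higher and 0 lower at an unadjusted limma p under 0.05). The glial homeobox gene repo differed by 0.22 (SE 0.12, limma adjusted p = 0.22).

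Of 19 blood cell and fat body genes 2 fell, Pxn and NimC1, and 18 of 19 had a negative difference. Without Hexa 2 and 3 there were also 2. The 2 calls were not made over the wider family, without control 1 or without control 3. The negative differences lay mainly in Hexa, with a list median of -0.02 in Quad and -0.55 in Hexa. Against control alone, no member was called lower in Quad and 13 were in Hexa, where the shares of all tested genes were 2.52% and 13.1%. No muscle sarcomere gene was called among 11 by limma (0 higher and 0 lower at an unadjusted limma p under 0.05), while edgeR on counts called 2 lower and DESeq2 3, and their summed RPKM ran from 12566 to 13671 in controls, 11825 to 12076 in Quad and 11075 to 12821 in Hexa. Ribosomal protein genes gave 1 call of 31, RpS5b, which fell by 0.67 (SE 0.12, limma adjusted p = 0.00766). No germ line gene was called among 8 by limma, edgeR or DESeq2 (0 higher and 0 lower at an unadjusted limma p under 0.05), and of 9 cell death and damage genes mre11 was the call. Of 47 histone gene copies, which are near identical so that reads cannot be placed, 2 were called higher, and of 13 ecdysone genes 1, phm. The call of phm was not made over the wider family (limma adjusted p = 0.0626). Of the 13 ecdysone genes only 4 had a positive difference, with a median of -0.20 (0.25 in Quad, -0.44 in Hexa). In Hexa alone 1 of them was called higher and 4 lower (19.1% and 13.1% of all tested genes), and in Quad alone none was called. The histone calls were 0 without control 1, Quad 1 or Hexa 1 and 5 without Hexa 3, and phm was not called without control 2, control 3, Quad 1, Quad 3 or Hexa 1. Of the 17 heat shock genes Hsp70Bb was called, with 73.6, 39.5 and 89.2 RPKM in controls, 219.6, 73.6 and 109 in the Quad libraries, and 261, 633 and 642 in those of Hexa. It was not called over the wider family (limma adjusted p = 0.0558), without any 1 of the controls (0.0509 to 0.0767) or without Hexa 2 and 3 (0.0922).

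The share of members with a called genotype difference varied between lists, against 23.1% of all tested genes. Hexa minus Quad was called for 16 digestive genes higher and 3 lower of 44, for 13 neuropeptide genes higher and none lower of 26, and for 10 chitin and tanning genes lower and 2 higher of 19. It was called for 10 heat shock genes higher and 1 lower of 17, and for 6 of 40 G2 and mitosis genes, all higher. Of 19 blood cell and fat body genes 9 had a called difference, all lower in Hexa.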

How the data were processed

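Members and gene lists were chosen with earlier results of these data known. RNA from pooled embryos was sequenced to 15-35 M reads a sample, per the labels' protocols; aligner, counter and genome build are not given in the sources used here. The authors deposited 1 table with read counts, which are whole numbers per gene, and log2 RPKM with a floor of -10.86 for 0, per the file headers. In it, 9 columns of linear RPKM were not used, because headers of 2 controls name another driver. Counts were used in alternatives only: their sums over the rows held were 8555639 to 11687961 a library, Act57B took 8.92% to 11.3%, and they followed RPKM (within 0.5% or 0.5 reads) for 2550 of 6190 tested genes, with 275 at a count of 0 everywhere. The table's own log2 values were back-transformed.

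limma 3.58.1 in R 4.3.3 (trend, robust) was fitted to log2(RPKM + 0.1), with group as the term, and adjusted over tested genes. The main test is on RPKM because counts did not follow RPKM for the other tested genes. edgeR 4.0.16 and DESeq2 1.42.0 on counts, other pseudocounts and filters, scalings, a replicate block, a heat shock covariate, a fit with 2 groups and leaving out each library were alternatives. Adjustment over 13841 genes and list counts without Hexa 2 and 3 were chosen after seeing the data. The steps were tested on simulated data. Named genes were the 6 transgenes, landmarks, the 12 largest shared rises and falls with a name and at least 5 RPKM, 6 rises and 6 falls with a genotype interval within 1 log2 unit, 6 unequal between genotypes, those called in neither genotype alone, and up to 4 called members of a list. Other called list members are named to spell out their list. Gene names were taken from the table; 7353 of 10221 rows matched annotation symbols. No sequences are printed.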

Additional observations from a re-analysis of the deposited data

Results flagged for a closer look

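The named genes below moved with pooled misexpression, and a test of the genotype difference itself (Hexa minus Quad in the same limma fit, adjusted p under 0.05) was passed. Values in parentheses are Hexa minus Quad on the log2 scale. No explanation is offered for any of them, and genotype and experiment cannot be told apart here.

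Hexa exceeded Quad by more than 2 log2 units in Tsf1 (6.57), lectin-37Db (4.46), Jon74E (4.28), AttA (4.13), ng3 (3.84), AttB (3.79), ng1 (3.57), ng2 (3.41), lcs (3.28), Nplp4 (2.93), Peritrophin-15a (2.90) and PGRP-SB2 (2.57). These include gut, immune and salivary gland genes and the iron carrier Tsf1. A Hexa minus Quad difference of 1 to 2 log2 units was seen in hb (1.98), Hsp70Bb (1.97), MtnB (1.96), Cpr11B (1.73), Pig1 (1.69), GstD2 (1.65), GstD8 (1.57), Sodh-2 (1.39), Mur18B (1.37), GstD1 (1.28), GNBP3 (1.27), PGRP-SB1 (1.15), Ilp7 (1.12), Det (1.07) and Trh (1.04). It was smaller in lambdaTry (0.99), MtnA (0.97), His2B,CG33868 (0.75), insb (0.71), aurB (0.71) and yellow-f2 (0.70). Not all of these genes rose in Quad. Against control, Quad differed by -0.29 for Jon74E, 0.08 for Trh and 0.01 for yellow-f2, and none of these differences was called.

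Quad was higher among the rises in GstD7 (-3.02), Drsl6 (-1.41) and SoxN (-0.56). Among the falls, Hexa was the lower genotype for goe (-0.62) and Ugt36Ba (-0.46). Quad was the lower one for Drsl2 (2.01), thetaTry (0.97), MFS1 (0.95) and Cpr72Ec (0.77).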

How the results depend on the processing

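Of 81 named genes that were called, 60 were also called over the wider family of 13841 genes and 49 kept the call whichever single library was left out. Adjusting over that family gave 444 pooled calls (294 higher, 150 lower), 138 shared falls, 169 calls for Quad, 1043 for Hexa and 650 for Hexa against Quad. edgeR with TMM, with total counts and without a filter gave 521, 481 and 512 pooled calls, of which 305, 289 and 301 were higher, and 1033, 921 and 949 calls for Hexa and 686, 534 and 637 for Hexa against Quad; without a filter it gave 197 shared rises. Fitting the 6 misexpression libraries as 1 group gave 194 pooled calls, 103 higher and 91 lower, all of them shared. Median centring gave 460 pooled falls and 345 shared falls. The heat shock covariate gave 158 falls, 126 shared falls, 588 calls for Hexa and 365 for Hexa against Quad, and leaving out both Hexa libraries 2 and 3 gave 865 and 640. Leaving out single libraries gave 360 to 860 pooled calls (228 to 593 higher, 118 to 341 lower), 182 to 474 shared rises, 114 to 297 shared falls, 132 to 363 calls for Quad, 962 to 2199 for Hexa and 442 to 2004 for Hexa against Quad. Of the 534 shared genes, 346 remained over the wider family, 266 under edgeR with TMM, 305 under DESeq2 and 285 without control 1. The pooled difference turned negative on counts for hb (-0.0108 with edgeR's TMM, -0.000789 with total counts, -0.00485 with DESeq2, -0.00939 without a filter) and nub (-0.38 in each), whose counts do not follow their RPKM. Whether replicate numbers pair the libraries is not settled. Deviations of same-numbered control and Quad libraries correlated at 0.098 to 0.18, and those of other numbers at -0.20 to 0.048. For control and Hexa the ranges were -0.15 to -0.035 and -0.12 to 0.20. With the replicate block there were 585 pooled calls, 230 shared rises, 173 shared falls and 882 calls for Hexa against Quad. Pseudocounts of 0.5 and 1 kept 534 and 527 of the shared genes. The labels' depth cannot be checked against the table, so no counting interval is given.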

Other observations

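Many shared genes have only a CG or CR number for a symbol, 166 of the 305 shared rises and 151 of the 229 shared falls. CG14852 stood at 2.55, 4.71 and 1.96 RPKM in controls, 552, 593 and 591 in the Quad libraries, and 1464, 1599 and 934 in those of Hexa. CG14850 was at 0.333, 0.805 and 0.514 RPKM in controls, 175, 167 and 164 in the Quad libraries, and 176, 215 and 111 in those of Hexa, a rise of 8.05 (SE 0.25). Both were chosen after their values were seen, and the misexpression libraries stood far above the controls in each. CG14851, CG8087 and CG14852 are adjacent among the tested genes in RefSeq's order (Release 6 plus ISO1 MT).

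Shared genes often had shared neighbours. Of 5148 tested genes with a place in that order, 449 were shared (8.72%), while of the 852 genes next to a shared gene 142 were (16.7%). There were 12 runs of at least 3 adjacent shared genes in 1 direction, among them MtnC, MtnB and MFS9 (higher), goe, TwdlX and TwdlY (lower), and CG4465, CG4459 and mira (higher). No cause of these runs was tested.

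A few genes were nearly off or on in all misexpression libraries, and were chosen after their values were seen. The odorant receptor gene Or19a was at 1.37, 2.12 and 1.06 RPKM in controls and at no more than 0.0408 in any misexpression library. Its near copy Or19b averaged 4.29 RPKM in controls, 0.00679 in Quad and 0.0666 in Hexa. Victoria was at 1.91, 1.59 and 1.97 RPKM in controls and at no more than 0.0602 elsewhere. CG10996 was at 0.0174, 0.0172 and 0.0358 RPKM in controls, 3.05, 2.57 and 3.61 in the Quad libraries, and 2.31, 1.93 and 1.60 in those of Hexa. Stock background and misexpression cannot be told apart for these genes.

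UDP-glycosyltransferase genes, also chosen after their values were seen and so given no test, were mostly lower. Of 16 tested Ugt genes none was called higher, 7 were called lower, 6 of them shared, and 14 had a negative pooled difference, with a median of -0.43. The 6 were Ugt36Ba, Ugt86De, Ugt35b, Ugt86Dh, Ugt35a and Ugt37b1, from -0.84 to -0.35.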
